A study of Mus musculus with 6 samples.

Results

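The genes described here are 33 members of the interferon response and of MHC class I antigen presentation, followed in mouse pancreatic islets. They were picked by name from the authors' annotated tables, which together with the count tables cover 47643 genes, and all 33 were found and passed the filter on low counts. The islets came from transgenic mice labelled as carrying miR-203 in beta cells (TG, 3 libraries) and from wild-type mice (WT, 3 libraries). All mice were labelled male and 10 weeks old and had fasted for 12 h, and the promoter that drives the transgene is not given in the sources used here. TG 1, TG 2, WT 1 and WT 2 were deposited in a first set of tables, and TG 3 and WT 3 in a second set. Each set holds both genotypes, so the table was a term of every test. Whether each library is a different animal is not in the labels, so p-values reflect only how these samples spread, and that spread may be technical.

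Total counts lay between 20176456 and 27482339 per library. Reads at the Mir203 locus check the labels, with 170 counts in TG 1, 164 in TG 2 and 150 in TG 3, and 39, 0 and 0 counts in the libraries labelled WT 1, WT 2 and WT 3. The library labelled WT 1 thus carried Mir203 reads that the other WT libraries lacked. Xist, a transcript of female cells, had 8 to 13 counts in TG 1, TG 2 and the library labelled WT 1, 4 in WT 2, but 27240 in TG 3 and 25145 in WT 3, against the label male. In edgeR's quasi-likelihood test with Benjamini-Hochberg adjustment, 0 of 16072 genes passed an adjusted p of 0.05. An unadjusted p under 0.05 was reached by 1498 genes with higher and 773 with lower TG levels. With DESeq2, 616 genes were called higher and 136 lower in TG.

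Interferons are secreted proteins that cells release when they sense viral RNA or DNA. Type I interferons act through the kinases JAK1 and TYK2 on a complex that holds STAT2 and IRF9, binds the interferon-stimulated response element (ISRE) and switches on antiviral genes. Interferon gamma acts through the gamma-activated site (GAS) and through IRF1, and raises the peptide-cutting, transport and display machinery of MHC class I. In islets this programme is best known from type 1 diabetes, where beta cells of affected islets show high MHC class I.

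The start regions below show the sequence the interferon pathway reads, and were chosen to span the range of behaviour of the members. Each is a RefSeq window of 300 bases on GRCm38.p6 that lies mostly before a transcript start, written 5′ to 3′ on the strand of the gene. Capitals mark matches on either strand to the ISRE core (TTTC, any 2 bases, TTTC) in Ifit1, Isg15 and B2m, and the GAS core TTCNNNGAA in Irf1, while the Tap1 window has no match to either. Ifit1 lies on chr19:34640639-34640938 (plus strand), Isg15 on chr4:156200769-156201068 (minus), B2m on chr2:122147437-122147736 (plus), Irf1 on chr11:53769764-53770063 (plus) and Tap1 on chr17:34187306-34187605 (plus).
Ifit1: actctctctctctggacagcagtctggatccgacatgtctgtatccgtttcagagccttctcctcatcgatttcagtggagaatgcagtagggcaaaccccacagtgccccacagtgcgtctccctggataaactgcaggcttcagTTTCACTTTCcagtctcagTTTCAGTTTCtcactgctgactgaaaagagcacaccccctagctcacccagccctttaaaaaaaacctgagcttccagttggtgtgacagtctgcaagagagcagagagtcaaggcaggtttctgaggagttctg
Isg15: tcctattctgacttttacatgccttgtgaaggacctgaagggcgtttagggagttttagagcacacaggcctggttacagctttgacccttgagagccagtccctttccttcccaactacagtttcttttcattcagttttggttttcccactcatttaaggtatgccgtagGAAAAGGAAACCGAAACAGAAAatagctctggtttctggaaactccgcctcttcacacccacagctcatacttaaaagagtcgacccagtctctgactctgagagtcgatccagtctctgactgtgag
B2m: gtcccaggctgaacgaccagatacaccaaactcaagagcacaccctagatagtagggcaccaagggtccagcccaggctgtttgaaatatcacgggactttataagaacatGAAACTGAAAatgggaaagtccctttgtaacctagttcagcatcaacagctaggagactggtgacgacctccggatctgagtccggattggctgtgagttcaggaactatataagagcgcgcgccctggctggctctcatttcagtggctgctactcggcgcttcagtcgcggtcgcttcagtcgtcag
Irf1: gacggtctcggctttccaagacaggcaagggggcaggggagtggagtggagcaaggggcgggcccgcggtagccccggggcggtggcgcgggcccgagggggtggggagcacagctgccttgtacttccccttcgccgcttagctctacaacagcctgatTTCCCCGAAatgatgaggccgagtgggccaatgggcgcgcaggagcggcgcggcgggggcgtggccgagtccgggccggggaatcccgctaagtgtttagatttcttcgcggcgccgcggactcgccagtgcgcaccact
Tap1: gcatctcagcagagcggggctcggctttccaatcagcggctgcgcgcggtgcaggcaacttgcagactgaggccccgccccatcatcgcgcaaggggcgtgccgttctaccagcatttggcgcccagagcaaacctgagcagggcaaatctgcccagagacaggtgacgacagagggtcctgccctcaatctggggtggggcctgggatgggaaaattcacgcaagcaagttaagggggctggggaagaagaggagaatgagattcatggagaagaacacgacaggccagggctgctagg

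The Ifit1 window holds separate matches at bases 147 to 156 and 166 to 175, counted from the 5′ end, and Isg15 holds 3 overlapping matches on the other strand between bases 173 and 194. RefSeq promoter windows were matched by symbol for 26 of the 33 members. Of these 26, 13 held an ISRE core, against 3.99% of all 27025 genes with a window. A GAS core was present in 6 of the 26 (23.1%), against 9.55% of all genes. The ISRE core was found in Ifit1, Ifit3, Isg15, Rsad2, Oas1a, Bst2, Gbp2, Gbp3, Gbp7, Ifih1, Ddx58, Stat2 and B2m. It was not found in these windows of Tap1, Tapbp, Psmb8, Psmb9, Psmb10, H2-K1 and H2-D1. The windows of Irf1, Irf7, Irf9, Ifi44, Ifit2 and Oasl2 also lacked it. A match describes letters and not a bound factor. A search for the ISRE core misses sites that depart from those letters.

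For no member did the difference between TG and WT islets pass the test against the spread between libraries. Of the 33, 0 passed an adjusted p of 0.05 in edgeR, where 0% of all genes did, and 0 did in DESeq2, and 0 had an unadjusted p under 0.05 in edgeR, where 14.1% of all genes tested did (9.32% higher, 4.81% lower). Fitted values were higher in TG for 16 members and lower for 17, where 48.1% of all genes were fitted higher. The median log2 fold change (TG over WT) was -0.0025, against -0.015 over all genes tested. The values ran from -0.35 for Gbp2 to 0.37 for Isg15. Ifih1 had the smallest p (unadjusted 0.121, adjusted 0.468 in edgeR). DESeq2 called 4.68% of all genes in either direction.

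**Figure D1:**
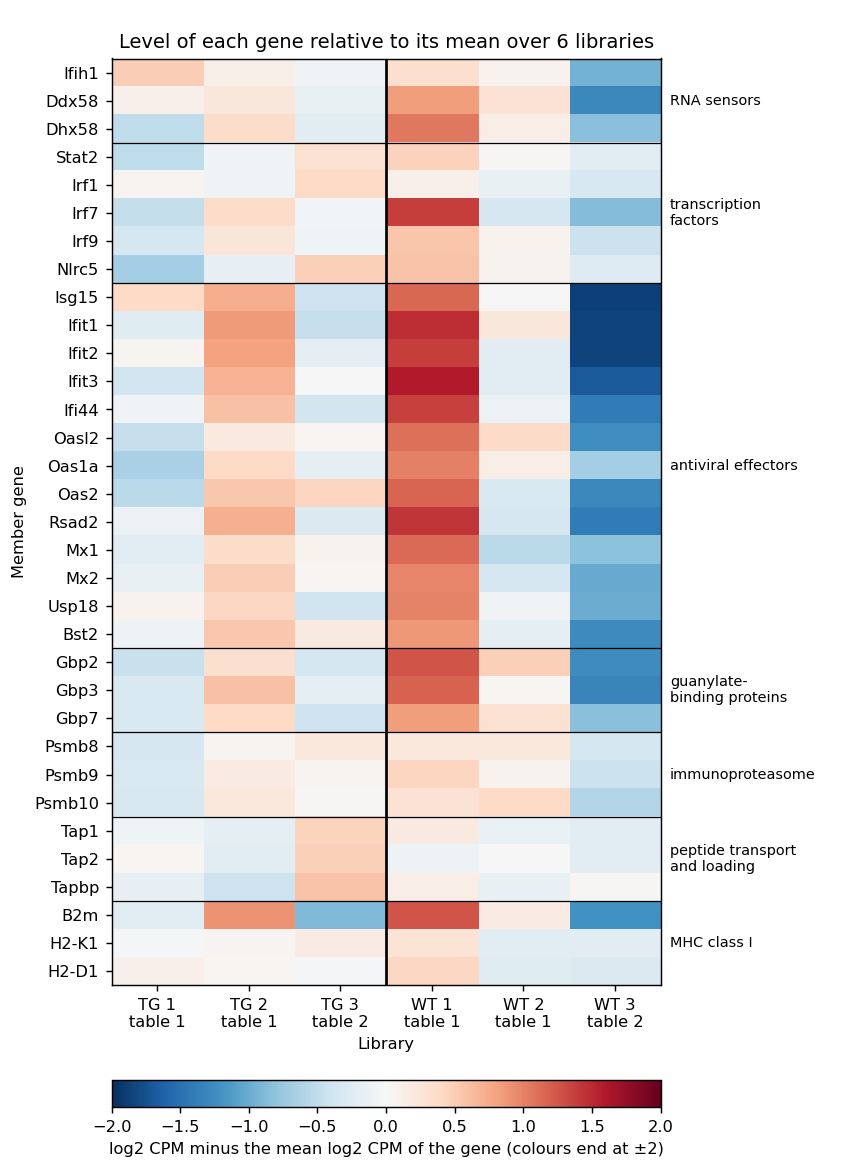
Each row is a member gene, each column a library (TG left of the line, WT right), and the colour gives log2 CPM minus the mean log2 CPM of that gene over the 6 libraries. The library labelled WT 1 was the highest for 27 members and WT 3 the lowest for 29, while the TG libraries lay between them for most.

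What the members shared was their order across libraries. The library labelled WT 1 held the highest level of 27 of the 33 members, where 12.1% of all genes tested were highest there, and of 23 when scaled by plain library totals. WT 3 held the lowest level of 29 members, where 20.7% of all genes were lowest there, and of 24 when scaled by plain library totals. Relative to the mean of its 6 libraries, the median member stood at -0.21, 0.35 and -0.024 log2 units in TG 1, TG 2 and TG 3, and at 0.96, 0.0095 and -0.87 in the libraries labelled WT 1, WT 2 and WT 3. Over all genes tested the same medians lay between -0.029 and 0.025. Within WT, whose extremes come from different tables, 21 members were more than 2 times as high in the library labelled WT 1 as in WT 3. Within the first table, 19 were more than 1.5 times as high in the library labelled WT 1 as in WT 2. The shares of all genes beyond these ratios were not counted, so both numbers only describe the members.

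The RNA sensors detect viral RNA in the cytosol and start interferon production. Ddx58, which encodes RIG-I, stood at 95.4 CPM in TG 1, 104 in TG 2 and 79.6 in TG 3, against 157, 108 and 36.2 CPM in the libraries labelled WT 1, WT 2 and WT 3. CPM are counts scaled to a common library size by edgeR's TMM factors. The TG libraries lay inside the WT range, and TG averaged 92.9 ± 12.3 CPM and WT 100 ± 60.9 CPM (SD, n = 3 each; log2 fold change 0.089, SE 0.33). Ifih1, which encodes MDA5, a sensor of long double-stranded RNA, was at 86.6, 66.9 and 58.3 CPM in the TG libraries, against 77.2, 64.6 and 31.9 CPM in WT. TG 1 was the highest library for Ifih1, the sole member of which this held, and the groups overlapped (log2 fold change 0.36, SE 0.21). Dhx58, which encodes the regulator LGP2, was at 14.0, 25.6 and 17.2 CPM in TG, against 41.5, 21.96 and 11.2 CPM in WT. Its gene span overlaps that of the antisense gene Dhx58os by 2637 bases. All overlaps given here compare whole gene spans, introns included, and exons were not compared. No strand setting is stated either, so whether Dhx58 and Dhx58os share reads is not known.

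Transcription factors of the pathway were split by how far they spread. Irf7, which amplifies type I interferon production, stood at 47.0 CPM in TG 1, 84.5 in TG 2 and 63.0 in TG 3, against 171, 52.1 and 35.9 CPM in the libraries labelled WT 1, WT 2 and WT 3. The library labelled WT 1 was more than 3 times WT 2, and TG averaged 64.8 ± 18.9 CPM and WT 86.5 ± 74.0 CPM (SD, n = 3 each; log2 fold change -0.25, SE 0.53). Irf1, the main transcription factor of the interferon gamma response, had 93.8, 85.2 and 120 CPM in TG, against 97.3, 81.8 and 72.5 CPM in WT. TG 3 was its highest library and the spread was narrow (log2 fold change 0.24, SE 0.19). Irf1 overlaps Gm17334, on the other strand, by 907 bases. Stat2 and Irf9 encode parts of the complex that binds the ISRE. Stat2 had 46.2, 62.0 and 80.9 CPM in TG, against 90.5, 66.7 and 55.9 CPM in WT, with TG 3 highest within TG, where TG 2 was highest for Irf7. Irf9 had a TG mean of 76.9 ± 16.0 CPM and a WT mean of 85.6 ± 28.6 CPM (SD, n = 3 each). Nlrc5, the transactivator of MHC class I genes, was at 5.29, 7.54 and 11.7 CPM in TG, against 12.6, 8.89 and 7.09 CPM in WT.

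The antiviral effectors spread widest. All 13 were highest in the library labelled WT 1 and lowest in WT 3, and the ratio of these libraries ran from 3.21 for Oas1a to 10.0 for Ifit1. Ifit1, which binds viral RNA lacking a host cap, stood at 64.0 CPM in TG 1, 137 in TG 2 and 54.6 in TG 3, against 210, 88.0 and 20.97 CPM in the libraries labelled WT 1, WT 2 and WT 3. The TG values lay within the WT range (log2 fold change 0.048, SE 0.54). Ifit3, its partner, had 50.9, 108 and 66.6 CPM in TG, against 200, 57.5 and 20.7 CPM in WT. Ifit2 had 13.6, 22.9 and 11.5 CPM in TG, against 34.3, 11.3 and 3.63 CPM in WT. The gene Ifit3b is a close copy of Ifit3, so the division of reads between them is uncertain.

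Isg15, a ubiquitin-like protein attached to other proteins, was at 19.2, 24.3 and 11.0 CPM in TG, against 32.4, 14.8 and 4.03 CPM in WT. Its log2 fold change of 0.37 (SE 0.41) was the highest of the 33 and below its own error. Usp18, the protease that removes Isg15 and dampens the receptor, had 47.2, 59.9 and 34.4 CPM in TG, against 89.4, 43.0 and 22.7 CPM in WT. Usp18 overlaps Gm44148, a long non-coding gene on the other strand. Rsad2, which encodes viperin, had 42.7, 75.5 and 37.9 CPM in TG, against 124, 36.5 and 17.5 CPM in WT. In the first table, Isg15, Usp18 and Rsad2 shared one order, with the library labelled WT 1 highest, then TG 2, TG 1 and WT 2.

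The 2′-5′ oligoadenylate synthetases make the messenger that activates RNase L. Oas2 was at 22.9, 48.3 and 44.8 CPM in TG, against 74.1, 26.8 and 13.6 CPM in WT, and Oas1a had a TG mean of 18.6 ± 6.79 CPM and a WT mean of 24.5 ± 13.8 CPM (SD, n = 3 each). Oasl2, a synthetase-like member of the same family, was at 56.3, 89.0 and 79.5 CPM in TG, against 166, 102 and 32.8 CPM in WT. Both first-table TG libraries lay below both WT libraries for Oasl2, whereas TG 3 lay above WT 3. Mx1 and Mx2, dynamin-like GTPases that block virus replication, had means of 6.59 ± 1.30 and 8.07 ± 1.90 CPM in TG, against 7.12 ± 5.62 and 7.85 ± 5.64 CPM for WT (SD, n = 3 each). Bst2, which encodes tetherin, a membrane protein that holds back budding virus, had a TG mean of 74.7 ± 16.7 CPM and a WT mean of 65.7 ± 45.5 CPM. Ifi44 had a TG mean of 9.43 ± 3.27 CPM and a WT mean of 11.3 ± 10.0 CPM. The SD over WT exceeded that over TG for all of the antiviral effectors named with a mean here.

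Guanylate-binding proteins are GTPases that attack the membranes of intracellular microbes. Gbp2 stood at 18.9 CPM in TG 1, 32.3 in TG 2 and 20.1 in TG 3, against 61.4, 36.0 and 10.7 CPM in the libraries labelled WT 1, WT 2 and WT 3. Its log2 fold change of -0.35 (SE 0.44) was the lowest of the 33 and smaller than its error. The log2 fold change was 0.014 for Gbp3 (SE 0.46) and -0.20 for Gbp7 (SE 0.28). All 3 were highest in the library labelled WT 1 and lowest in WT 3.

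**Figure D2:**
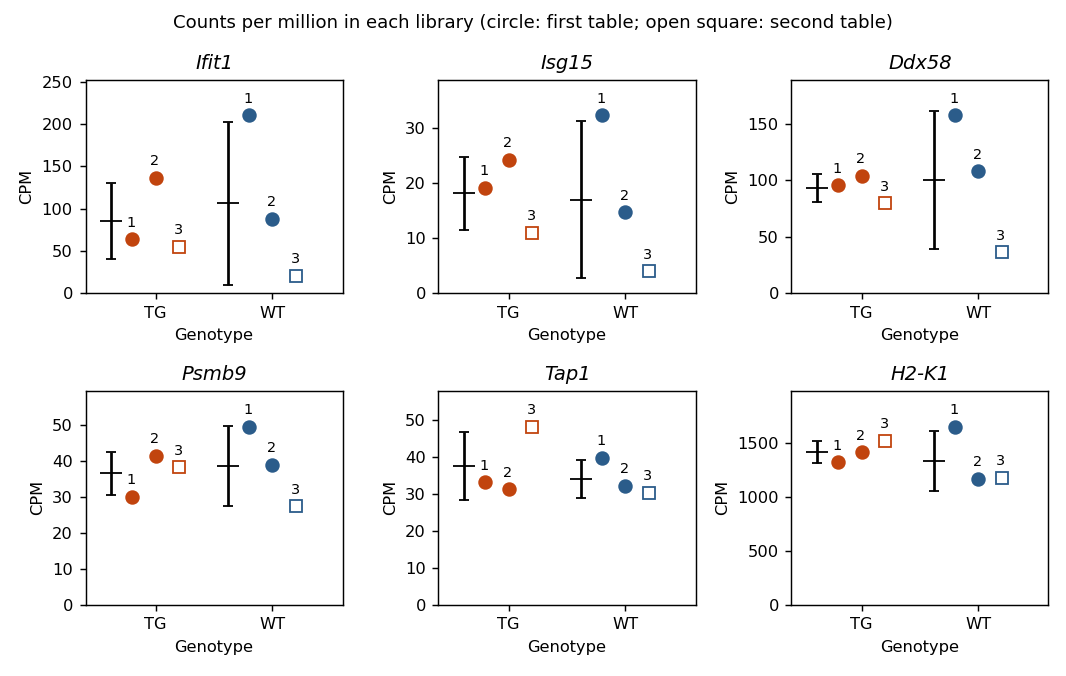
CPM of 6 members in each library, TG left of WT, numbered by replicate, with the mean and SD of each genotype as bars (n = 3). For Ifit1, Isg15, Ddx58 and Psmb9 the 3 TG values lay between the highest and the lowest WT value, while Tap1 was highest in TG 3.

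The antigen-presentation members varied over a narrower range, apart from B2m. Immunoproteasome subunits replace the standard catalytic subunits and favour peptides that fit MHC class I. Psmb8 stood at 25.5 CPM in TG 1, 33.2 in TG 2 and 37.1 in TG 3, against 37.1, 37.0 and 25.1 CPM in the libraries labelled WT 1, WT 2 and WT 3. Psmb9 had a TG mean of 36.7 ± 5.96 CPM and a WT mean of 38.7 ± 11.1 CPM, and Psmb10 had 125 ± 23.1 CPM in TG and 135 ± 44.4 CPM for WT (SD, n = 3 each). Their log2 fold changes were -0.039 (SE 0.22), -0.047 (SE 0.23) and -0.045 (SE 0.25) for Psmb8, Psmb9 and Psmb10. The ratio of Psmb8 to Psmb5, the standard subunit it replaces, was 0.237, 0.210 and 0.293 in TG, against 0.219, 0.209 and 0.142 in WT, on the authors' FPKM scale. For Psmb9 to Psmb6 the ratio was 0.124, 0.109 and 0.159 in TG, against 0.155, 0.106 and 0.0925 in WT. For Psmb10 to Psmb7 it was 3.91, 2.99 and 7.51 in TG, against 4.13, 4.18 and 4.11 in WT. Each ratio was highest in TG 3, and in the first table the Psmb10 ratio was lower in both TG libraries than in both WT libraries. In CPM, none of Psmb8, Psmb9 and Psmb10 was highest in TG 3. Psmb9 was at 38.4 CPM in TG 3 and 49.7 in the library labelled WT 1, and Psmb10 at 128 in TG 3 and 166 in WT 2. Psmb5, Psmb6 and Psmb7 each had fewer CPM in TG 3 than in WT 3, so the ratios also depend on these standard subunits. Psmb9 and Tap1 share their start region on opposite strands and overlap by 212 bases, so some reads could belong to either. Psmb10 overlaps the antisense gene Gm16156 by 2665 bases.

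Tap1 and Tap2 form the pump that carries peptides into the endoplasmic reticulum, and Tapbp (tapasin) ties it to the empty class I molecule. Tap1 was at 33.1, 31.2 and 48.2 CPM in TG, against 39.8, 32.2 and 30.2 CPM in WT. Tap2 was at 41.5, 34.8 and 56.3 CPM in TG, against 37.5, 40.1 and 34.8 CPM in WT. Tapbp was at 320, 270 and 535 CPM in TG, against 395, 324 and 367 CPM in WT, and Zbtb22, on the same strand, overlaps it by 3422 bases. TG 3 was the highest library for all 3, and none was highest in the library labelled WT 1. The log2 fold changes were 0.12 (SE 0.20), 0.21 (SE 0.19) and -0.011 (SE 0.22) for Tap1, Tap2 and Tapbp.

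The class I heavy chains and their light chain had the highest median FPKM of the 33. H2-K1 stood at 1320 CPM in TG 1, 1413 in TG 2 and 1519 in TG 3, against 1650 CPM in the library labelled WT 1, 1166 in WT 2 and 1176 in WT 3. H2-D1 was at 1009, 963 and 925 CPM in TG, against 1249, 795 and 772 CPM in WT. For both genes the TG libraries lay above WT 2 and WT 3 and below the library labelled WT 1. Their log2 fold changes were 0.094 (SE 0.21) and 0.051 (SE 0.22). H2-K1 and H2-D1 belong to a family of near-identical genes, so the division of reads among them is uncertain. B2m, the light chain beta-2-microglobulin, was at 398, 853 and 249 CPM in TG, against 1093, 512 and 197 CPM in WT. B2m spread 5.54-fold between its highest and its lowest library, against 1.42-fold for H2-K1 and 1.62-fold for H2-D1. All 5398 bases of the B2m gene span, introns included, lie within the span of Patl2 on the other strand. Exons were not compared and no strand setting is stated, so whether the 2 genes share reads is not known.

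Across genes, levels can be compared only per length, on the authors' FPKM scale, and the first and second tables were scaled separately. H2-K1 ranged from 426 to 636 FPKM over the 6 libraries, B2m from 253 to 1207 FPKM and H2-D1 from 294 to 460 FPKM. Bst2, at 37.8 to 143 FPKM, was the antiviral effector with the highest median, followed by Ifit3 at 13.1 to 109 FPKM. Nlrc5 had the lowest median, with 0.660 to 1.68 FPKM, and Ifi44 the next with 0.599 to 3.49 FPKM. The ranges of the last 2 overlapped.

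The TG-minus-WT difference had opposite signs in the tables. Xist counts were high in both libraries of the second table and in none of the first, so table and apparent sex cannot be told apart. In the first table the mean log2 level in TG was below that in WT for 31 of 33 members, where 52.3% of all genes were lower, and for 27 when scaled by plain library totals. The library labelled WT 1 is in this difference. In the second table TG 3 was above WT 3 for all 33, where 49.2% of all genes were higher. The combination of lower in the first table and higher in the second held for 31 members, against 15.6% of all genes tested. The median difference was -0.36 log2 units in the first table and 0.72 in the second, against -0.016 and -0.012 over all genes. It was largest among the antiviral effectors in the second table, with a median of 1.27. Ifih1 and Irf1 were the exceptions in the first table, at 0.11 and 0.0032.

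**Figure D3:**
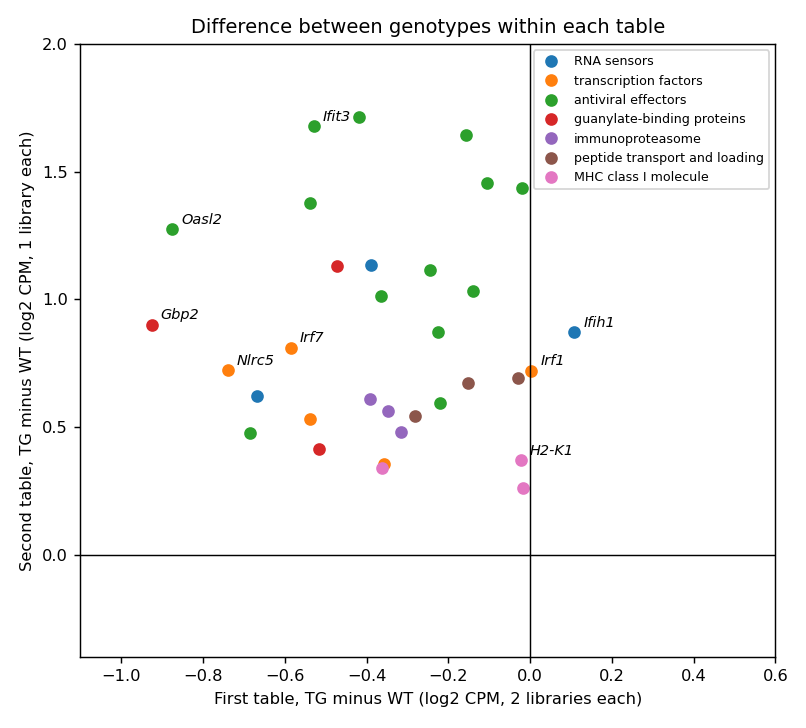
Each point is a member gene, with the TG-minus-WT difference in mean log2 CPM of the first table on the x axis (2 libraries of each genotype) and of the second table on the y axis (1 library of each). All 33 points lie above 0 on the y axis and 31 lie below 0 on the x axis.

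No member had TG on one side of WT in both tables. All TG libraries exceeded the WT libraries deposited with them for 0 members, where 13% of all genes did, and were below them for 0 members, where 13.4% did. For 8 members TG was below WT without overlap in the first table and above it in the second (3.78% of all genes), and the reverse held for 0 (2.81%). The test of the difference itself, the table-by-genotype interaction in edgeR, passed an adjusted p of 0.05 for 0 members and 0% of all genes. At an unadjusted p under 0.05, 7 members had a higher TG effect in the second table (1.53% of all genes) and 0 had a lower one (0.747%). Oasl2 had an interaction of 2.16 log2 units (unadjusted p = 0.00933) and Ddx58 of 1.55 (unadjusted p = 0.00860), and edgeR's Benjamini-Hochberg adjusted p was 0.9999 for both. With 1 TG and 1 WT library in the second table, the spread in this test comes from the first.

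The sign of the fitted values turned when single libraries were left out. Without the library labelled WT 1, the fitted log2 fold change was above 0 for all 33 members. Their median was 0.33, against 0.0052 over all genes tested. An unadjusted p under 0.05 was reached by 4 of the 33, where 7.93% of all genes were higher in that fit at this threshold. Without TG 1, all 33 were also above 0, with a median of 0.20, against -0.0077 over all genes. Without WT 3, the fitted value was below 0 for 32 members, with a median of -0.37, against -0.0088 over all genes. In that fit 2 of the 33 had an unadjusted p under 0.05, where 1% of all genes were lower at this threshold. Without TG 3, 31 were below 0, with a median of -0.37, against -0.0081 over all genes. Both of these fits come down to the first table, which alone gave 31 below 0 and the same median of the members. In none of these fits did a member pass after adjustment in edgeR. How many of all genes lay on each side of 0 was not counted for them. Without TG 2, edgeR called 1461 genes higher and 727 lower (13.2% of all genes) but 0 members, and the lowest adjusted p among members was 0.0940 for Ifih1.

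**Figure D4:**
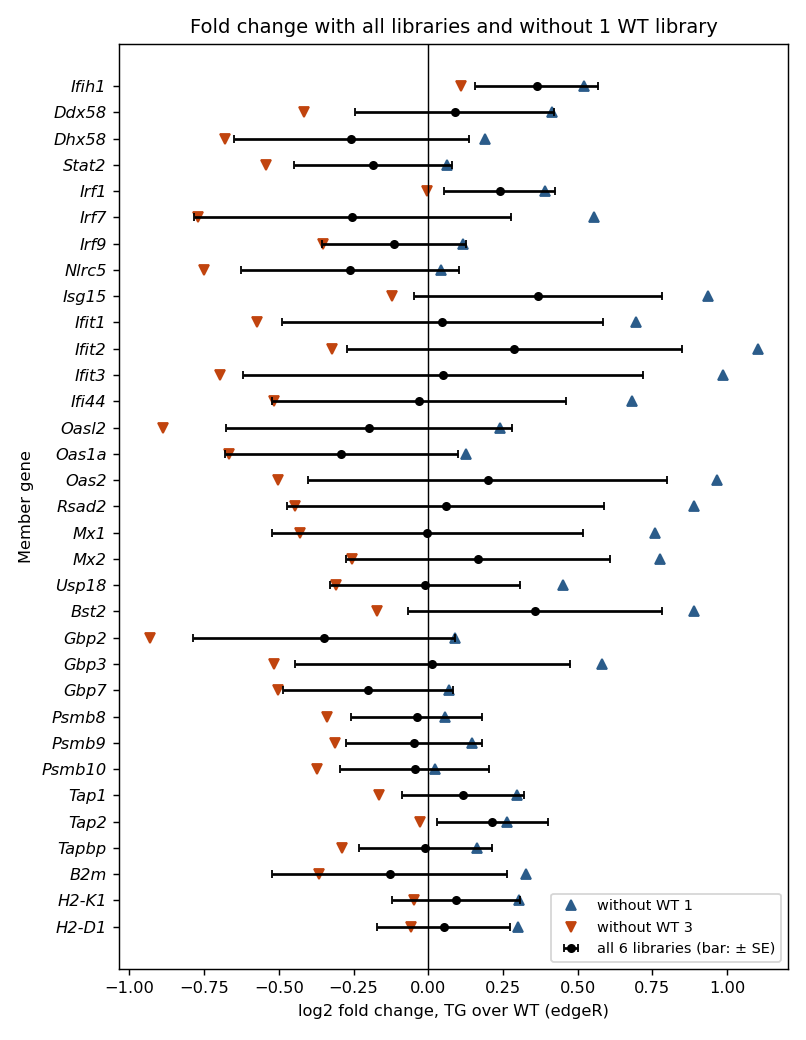
Log2 fold changes of TG over WT from edgeR with their SE for all 33 members (black), and the same without the library labelled WT 1 (blue) and without WT 3 (red). All values without the library labelled WT 1 lie above 0, and 32 of 33 values without WT 3 lie below 0.

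Promoter letters and spread could be set side by side. The 13 members with an ISRE core in the window had a median ratio of 5.54 between the library labelled WT 1 and WT 3 (range 1.62 to 10.0). The 13 members with a window but no core had a median of 1.81 (range 1.07 to 9.43). The sets overlapped, since Ifit2, whose 2 windows hold no ISRE core, reached 9.43 and Stat2, which has the core, was at 1.62. The median log2 fold change between genotypes was 0.048 and -0.030 in these sets. Among the 13 without the core, Tapbp, Tap1, H2-K1, Psmb8, H2-D1, Psmb9 and Psmb10 had ratios of 1.07 to 1.83. The others were Irf1 at 1.34, Irf9 at 1.98, Irf7 at 4.78, Oasl2 at 5.06, Ifi44 at 6.78 and Ifit2 at 9.43. B2m was the only antigen-presentation member with the core, so core and role of the gene were largely confounded. No test was made of this grouping.

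Because the transgene encodes miR-203, sites for its seed were looked up in the members' 3′ untranslated regions. The mature strand, with the seed (bases 2 to 8) in capitals, comes from RefSeq on GRCm38.p6 (chromosome 12), and the site that pairs with the seed is CATTTCA.
mmu-miR-203-3p: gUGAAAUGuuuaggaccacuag

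In the longest annotated 3′ untranslated region of each gene (GENCODE M21, GRCm38), 5 of 33 members held the site (15.2%), against 18.0% of 13867 tested genes with such a region. The members with a site were Irf1, Oasl2, Rsad2, Mx1 and Usp18. The sites, with 8 bases to either side and the match in capitals, were as follows.
Irf1: acaggaacCATTTCAaacaacag
Oasl2: aagccagaCATTTCAccgagact
Rsad2: agaaccagCATTTCAtttatatt
Mx1: caagacatCATTTCAcctgtgta
Usp18: gtctgctgCATTTCAacgagaat

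Their log2 fold changes were 0.24 (SE 0.19), -0.20 (SE 0.48), 0.059 (SE 0.53), -0.0025 (SE 0.52) and -0.011 (SE 0.32) in that order. A seed match is a description of letters and does not show that the microRNA acts there. The level of the mature microRNA was not analysed here.

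Other genes of the pathway were read from lists drawn up by role. Of 119 tested genes of 8 such lists, 0 passed an adjusted p of 0.05 in edgeR, and 7 were higher and 3 lower in TG at an unadjusted p under 0.05, against 9.32% and 4.81% of all genes. DESeq2 called 2 of them higher. Of 11 listed genes for interferons themselves, 5 were named in the deposited annotation, and interferon gamma was not among them. These 5 were at or near 0, with at most 5 counts in any library, and none reached the filter on low counts. Of the 42 other interferon-stimulated genes tested, 25 were highest in the library labelled WT 1 and 34 lowest in WT 3, and of the 14 other interferon-inducible GTPases, 13 and 11 were. Over all genes these shares were 12.1% and 20.7%.

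Among receptors and signalling genes, Ifngr1, a chain of the interferon gamma receptor, had a TG mean of 37.3 ± 10.5 CPM and a WT mean of 22.8 ± 6.08 CPM (SD, n = 3 each). Its log2 fold change was 0.70 (SE 0.19, edgeR adjusted p = 0.230). Ifnar2, a chain of the type I receptor, had a TG mean of 36.8 ± 4.20 CPM and a WT mean of 26.3 ± 8.44 CPM (log2 fold change 0.53, SE 0.19, edgeR adjusted p = 0.293). Tmem173, which encodes the DNA-sensing adaptor STING, had a TG mean of 5.16 ± 1.499 CPM and a WT mean of 2.19 ± 0.342 CPM (log2 fold change 1.23, SE 0.32, edgeR adjusted p = 0.227). Tbk1, the kinase downstream of it, had a TG mean of 37.95 ± 5.78 CPM and a WT mean of 48.8 ± 8.62 CPM. Ifitm3, which blocks virus entry, had a TG mean of 55.6 ± 19.6 CPM and a WT mean of 31.0 ± 15.0 CPM, and Slfn2 had 7.61 ± 4.30 CPM in TG and 4.49 ± 2.96 CPM for WT. H2-Q7 and H2-T23, nonclassical class I genes, stood at log2 fold changes of 0.76 (SE 0.32) and 0.76 (SE 0.37). Psmb5, Psmb6 and Psmb7, the standard proteasome subunits, stood at fitted fold changes of -0.42 (SE 0.17) for Psmb5, -0.20 (SE 0.20) for Psmb6 and -0.11 (SE 0.24) for Psmb7 on the log2 scale. Of 7 tested MHC class II genes, 4 had higher and 3 lower fitted values. Gbp5 and Tgtp1, the other GTPases with the smallest p, stood at log2 fold changes of -1.18 (SE 0.52) and 1.03 (SE 0.51).

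Levels of cell-type markers also differed between libraries, and in bulk islets fewer cells of a type and less RNA per cell cannot be told apart. The 15 myeloid markers, of which 14 were tested, summed to 127 to 224 CPM in TG and 93.5 to 215 CPM in WT. The library labelled WT 1, the highest for most members, had the lowest myeloid sum, 93.5 CPM. WT 3, the lowest for most members, had a similar sum, 96.4 CPM. The 12 T- and NK-cell markers summed to 4.60 to 8.76 CPM in TG and 2.86 to 3.72 CPM in WT. Those other than Lck did not exceed 0.664 CPM in any library. The 8 B-cell markers summed to 5.77 to 25.4 CPM in TG and 22.3 to 75.0 CPM in WT, with the highest sum in the library labelled WT 1. Of the 6 tested, only Ighm and Igkc were highest there. Beta-cell genes summed to 56423, 224372 and 54720 CPM in TG 1, TG 2 and TG 3, against 238368, 230779 and 117163 CPM in the libraries labelled WT 1, WT 2 and WT 3. Acinar markers summed to 315 to 5337 CPM in TG and 154 to 7625 CPM in WT, with the lower ends in the second table. The marker sums of duct, of T and NK cells and of the other islet cells did not overlap between genotypes. Of the 12 T- and NK-cell markers only Lck was tested, and 11 were under 1 CPM in all libraries. Among single genes, 13% had every TG library above the WT libraries of its table. The share without overlap across all 6 libraries was not counted. Duct markers summed to 1487 to 1950 CPM in TG and 687 to 1044 CPM in WT, and markers of other islet cells to 40632 to 70970 CPM in TG and 25576 to 35202 CPM in WT. Stellate-cell markers summed to 34.5 to 182 CPM in TG and 26.2 to 79.8 CPM in WT. Endothelial markers summed to 362 to 720 CPM in TG and 332 to 518 CPM in WT. The part of RNA from any of these cells in the level of the members, or of Ifngr1, Tmem173 and Ifitm3, was not tested, and the directions of the members with an acinar covariate are given with the other alternatives.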

How the data were processed

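Islet RNA from 6 libraries was sequenced, and the submitters' processing notes name CASAVA 1.8, HISAT2 and the mouse build GRCm38/mm10. How reads were assigned to genes, with or without strand, and with which annotation, is not given in the sources used. The authors deposited raw read counts per gene, and FPKM (fragments scaled by gene length and library depth), in 2 sets of tables normalized separately. Counts were joined on gene ID and scaled by TMM in edgeR 4.0.16 (R 4.3.3), genes with low counts were left out by filterByExpr, and TG was tested against WT with the table as a term by the quasi-likelihood test, with Benjamini-Hochberg adjustment over all 16072 genes tested. The deposited FPKM served only to compare levels between genes. DESeq2 1.42.0, limma 3.58.1, other filters and scalings, the first table alone, an acinar covariate and leaving out each library were alternatives. The edgeR steps were run on simulated counts with the same dispersion for every gene and no outlying library. That run does not show what differences could be detected at the spread of these members. No libraries were duplicates. The closest pair, TG 2 and the library labelled WT 1, had a chi-square per degree of freedom of 31.6. For TG 2 this value was 61.0 with WT 2, 209 with WT 3, 335 with TG 1 and 407 with TG 3. Genes named outside the members were those with the smallest p in their list, apart from the standard proteasome subunits, named for their roles. The members and lists were chosen with earlier results of these data known.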

Additional observations from a re-analysis of the deposited data

Results flagged for a closer look

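For 8 members the TG libraries lay below the WT libraries in the first table and above in the second, with no overlap, where 3.78% of all genes did so. The opposite arrangement held for 0 members and 2.81% of all genes. The second-table difference (TG minus WT) exceeded the first-table difference by 1.07 log2 units for Stat2, 1.52 for Ddx58, 2.15 for Oasl2, 1.83 for Gbp2, 0.909 for Psmb8, 1.003 for Psmb10, 0.824 for Tapbp and 1.46 for Nlrc5. In edgeR's test of the table-by-genotype interaction, the unadjusted p was 0.0427 for Stat2, 0.00860 for Ddx58, 0.00933 for Oasl2, 0.0282 for Gbp2, 0.0430 for Psmb8 and 0.0426 for Nlrc5. Psmb10 and Tapbp had unadjusted p-values of 0.0518 and 0.0851. None passed adjustment over all genes (edgeR adjusted p = 0.9999 for each). The direction in the first table includes the library labelled WT 1, which carried Mir203 reads. The tables also differ in Xist counts, so a difference between tables cannot be told apart from one of apparent sex.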

How the results depend on the processing

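None of the 33 members passed an adjusted p of 0.05 under any of the 15 alternatives, with edgeR, DESeq2 1.42.0 or limma-voom. The number of all genes called did move, from 0 to 1300 higher and 372 lower without the filter on low counts, and to 616 and 136 with DESeq2. Leaving out 1 library in turn gave 0 to 1461 higher and 0 to 727 lower, and the upper ends came without TG 2. Of the other pathway genes, 8 were called higher and 2 lower without the filter, 2 higher with DESeq2, and 0 to 6 higher and 0 to 1 lower with 1 library left out. The cause was not tested. The sign of the fitted log2 fold change turned as follows. In the first table alone it was -0.11 for Isg15, -0.57 for Ifit1, -0.32 for Ifit2, -0.69 for Ifit3, -0.41 for Ddx58, -0.50 for Oas2, -0.44 for Rsad2, -0.25 for Mx2, -0.17 for Bst2, -0.51 for Gbp3, -0.16 for Tap1, -0.023 for Tap2, -0.043 for H2-K1 and -0.051 for H2-D1. Without the table term it was -0.32 for Ifit1, -0.030 for Ifit2, -0.30 for Ifit3, -0.11 for Ddx58, -0.19 for Rsad2, -0.21 for Gbp3 and 0.051 for Tapbp. With an acinar covariate it was 0.061 for Ifi44, 0.16 for Mx1, 0.062 for Usp18 and -0.0089 for Gbp3. With limma-voom it was 0.12 for Mx1 and 0.033 for Usp18. With a filter of 1 CPM in 3 libraries it was 0.0060 for Mx1. Without the filter it was -0.0020 for Gbp3. With 1 library left out, the lowest and highest log2 fold changes were -0.54 and 0.062 for Stat2, -0.0049 and 0.39 for Irf1, -0.77 and 0.55 for Irf7, -0.35 and 0.12 for Irf9, -0.12 and 0.94 for Isg15, -0.57 and 0.70 for Ifit1, -0.32 and 1.10 for Ifit2, -0.70 and 0.99 for Ifit3, -0.52 and 0.68 for Ifi44, -0.42 and 0.41 for Ddx58, -0.68 and 0.19 for Dhx58, -0.89 and 0.24 for Oasl2, -0.67 and 0.13 for Oas1a, -0.50 and 0.97 for Oas2, -0.44 and 0.89 for Rsad2, -0.43 and 0.76 for Mx1, -0.25 and 0.78 for Mx2, -0.31 and 0.45 for Usp18, -0.17 and 0.89 for Bst2, -0.93 and 0.090 for Gbp2, -0.52 and 0.58 for Gbp3, -0.50 and 0.071 for Gbp7, -0.34 and 0.16 for Psmb8, -0.31 and 0.16 for Psmb9, -0.37 and 0.20 for Psmb10, -0.16 and 0.30 for Tap1, -0.029 and 0.35 for Tap2, -0.29 and 0.16 for Tapbp, -0.42 and 0.33 for B2m, -0.048 and 0.30 for H2-K1, -0.087 and 0.30 for H2-D1 and -0.75 and 0.043 for Nlrc5. Ifih1 kept its sign, at 0.11 to 0.53. Scaled by plain library totals, an alternative chosen after seeing the data, 23 members were highest in the library labelled WT 1, 24 lowest in WT 3, 33 higher in TG 3 than in WT 3, and 27 lower in TG in the first table. Scaled by DESeq2 size factors, also chosen after seeing the data, these counts were 27, 25, 33 and 31. No paired analysis was possible because the titles give TG and WT libraries no shared numbers. TG 3 and WT 3 share their table, which was already a term of the fit. The precision is limited by 3 libraries of each genotype, 1 WT library among them with Mir203 reads, and by spreads of up to 10.0-fold within WT.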

Other observations

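The immunoglobulin transcripts Ighm and Igkc, chosen after their values were seen, were also highest in the library labelled WT 1. Both belong to the 8 B-cell markers, and no other of the 6 tested was highest there. Fitted values were lower in TG for 4 of these 6 and higher for 2. Ighm, the heavy chain of IgM, stood at 1.15 CPM in TG 1, 0.754 in TG 2 and 9.09 in TG 3, against 44.2, 8.45 and 21.3 CPM in the libraries labelled WT 1, WT 2 and WT 3. Igkc, the kappa light chain, was at 1.18, 1.11 and 10.8 CPM in TG, against 24.8, 7.88 and 14.6 CPM in WT. The log2 fold changes were -3.53 (SE 0.98) for Ighm and -2.67 (SE 0.83) for Igkc, and edgeR's adjusted p was 0.234 and 0.252. Unlike most members, neither was lowest in WT 3.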
